A study of Canis lupus familiaris with 33 samples.

Results

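Fresh-frozen oligodendroglioma, a glial brain tumour, was set against fresh-frozen control brain in dogs. All 6 fresh-frozen tumour libraries and all 6 fresh-frozen control libraries of the count table were used, 12 of the 33 libraries of the series, each from a different dog. The others came from formalin-fixed, paraffin-embedded (FFPE) tissue. The tumours came from dogs 60127 (Pomerian), 60461 (Boxer), 60631 (Border Terrier), and 60636, 60679 and 60749 (French Bulldogs); dog 60679 had a grade II tumour and the other 5 had grade III tumours. The controls, labelled as healthy brain, came from dogs 60126 (Bolonka Swetna), 60459 (Hovawart), 60460 and 60462 (French Bulldogs), 60516 (Mongrel) and 60629 (Berner sennenhund). Ages ran from 4.7 to 10 years in the 5 tumour dogs with a stated age and from 2.8 to 10.2 years in the 5 such control dogs. All tissue was taken at necropsy, 1 to 18 hours after death, and frozen at -80 °C, and no label used here names the brain region of the controls.

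Oligodendroglioma cells resemble cells of the oligodendrocyte lineage, which make the myelin around nerve fibres. The tumour is common in dogs with short skulls, Boxers and French Bulldogs among them, and its human counterpart is known for recurrent losses of chromosome arms. A piece of tumour also holds brain cells, vessels and immune cells in proportions that vary. RNA of such bulk tissue is a sum over these cells, so fewer cells of a type and less RNA per cell cannot be told apart. The table names genes by Ensembl identifier alone, and 0 of its 30951 identifiers were paired with a gene name by the RefSeq table at hand. Neither the tissue labels nor the cell types could therefore be checked against marker genes, and genes are described by position, structure, level and spread.

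Total counts ran from 9765907 to 25168080 in tumours and from 15255966 to 26726025 in controls. The libraries of tumours 60127 and 60461 and of controls 60126 and 60462 stood apart on the second principal component, computed after each group's mean was subtracted, with 23.3% of the remaining variance. These libraries were also the deepest, with 24458306 to 26726025 counts, against 9765907 to 19433146 in the other 8. No pair of libraries of a group agreed within counting noise, as 1 library deposited under 2 names would, with chi-square values per degree of freedom of at least 105 between tumours and 20.7 between controls. Pairs of a tumour and a control were not checked in this way. Tumour and control did not always separate. Over 15057 genes, the levels of tumour 60636 correlated best with control 60516 (Spearman rho 0.968) and no higher than 0.938 with any other tumour. Tumour 60127 correlated best with control 60462 (rho 0.935). Tumours 60461, 60631, 60679 and 60749 each correlated best with another tumour. These correlations are descriptions across genes, and the libraries share the kit and the sequencing platform.

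The first question was how many genes differed between tumour and control. In edgeR's quasi-likelihood test 2760 genes were higher in tumours (18.3% of the 15057 tested) and 1837 were lower (12.2%), 30.5% in all at a Benjamini-Hochberg adjusted p under 0.05. The balance of directions depended on scaling and tool: 60.0% of these calls were higher, against 53.7% with relative-log-expression scaling in edgeR (2360 higher, 2033 lower), 50.9% with DESeq2 (3090 and 2976) and 52.8% with limma-voom (3276 and 2929). The median log2 fold change was 1.37 among higher genes, with 90% of them between 0.67 and 3.41, and -1.43 among lower genes, with 90% between -2.95 and -0.63. Changes of at least 2-fold were seen in 2038 higher and 1394 lower genes, and of at least 16-fold in 79 higher and 18 lower genes. Higher genes had a median control level of 3.58 log2 CPM (counts scaled to the library's total after edgeR's TMM adjustment), and lower genes one of 5.76. Over all tested genes this median was 4.16. Among genes at 7 log2 CPM or more in controls 127 of 1544 were higher and 522 lower, while among genes under 1 log2 CPM 517 of 2168 were higher and 94 lower. The control level enters both the class and the fold change, and a weakly expressed gene may have passed the expression filter by its tumour libraries alone, so these class counts are no test.

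**Figure D1:**
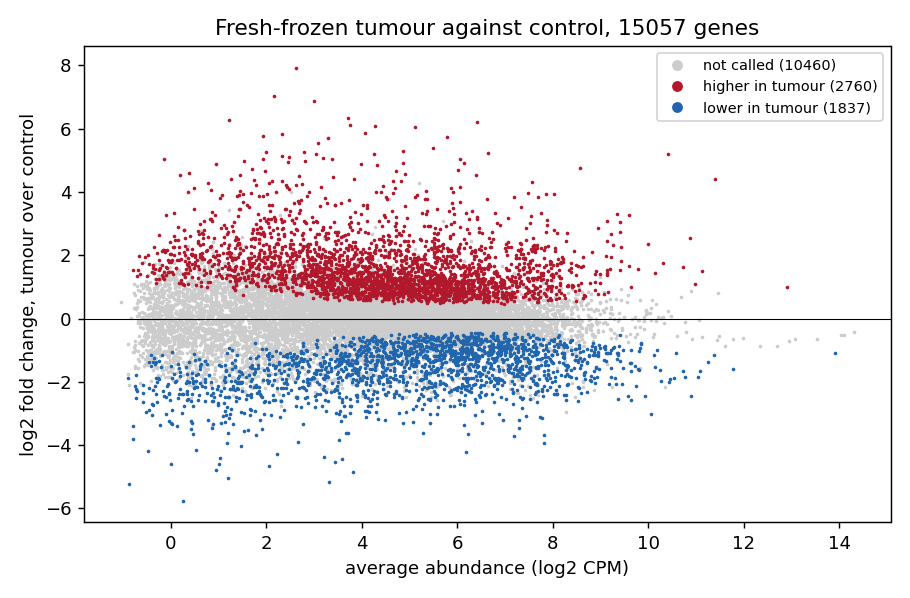
Each point is 1 of 15057 genes, with its average abundance in log2 CPM on the x axis and its log2 fold change, tumour over control, on the y axis; 2760 genes higher in tumour, 1837 lower and the rest are coloured apart. The most abundant genes, at the right edge, lie mostly at or below 0.

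These counts depended on which dogs were compared. Without the 4 libraries that stood apart, edgeR called 2291 genes, of which 2033 were among the 4597, and in those 4 libraries alone it called 0 (4118 had an unadjusted p below 0.05, and DESeq2 and limma were not tried there). With tumour 60636 and control 60516 left out it called 4883. In the 10 libraries with a stated age 2108 genes were called, and 581 (3.84%) with age as a covariate. Over all 12 libraries DESeq2 called 6066 of 18677 genes (32.5%) and limma-voom called 6205 (41.2%). Restricted to French Bulldogs (3 tumours, 2 controls), edgeR found 0 genes past the threshold, and 2349 had an unadjusted p below 0.05. DESeq2 and limma were not tried on these 5 libraries. Breeds and ages were not matched between tumour and control dogs, and 3 against 2 French Bulldogs are too few to test the part of breed. In simulated counts with the spread of these 12 libraries, the test recovered 70.4% of 98 changes of 4-fold and 7.2% of 97 of 2-fold. Only these were changed among 14901 genes, against 4597 called in the data, so the adjusted threshold was stricter there. The simulation also gave a gene the same spread in both groups and the same change in every tumour, unlike the data. How many changes of 2-fold or less were missed in the data was therefore not tested.

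How evenly the 6 tumours carried the change was examined next. In 941 of the 2760 higher genes all 6 tumours lay above all 6 controls, and in 701 of the 1837 lower genes all 6 lay below. Over all tested genes, such separation was seen upward in 6.35% and downward in 5.13%. A stricter mark asked for a level at least 2-fold beyond the highest or lowest control. Of the higher genes, 57 passed it in all 6 tumours, 214 in 5, 311 in 4, 430 in 3, 618 in 2 and 670 in 1 tumour, and 460 passed it in none. Of the lower genes, 35 passed it in all 6 tumours, 128 in 5, 331 in 4, 415 in 3, 293 in 2, 279 in 1 and 356 in none. Most called genes were therefore shifted far beyond the controls in some of the tumours and less in the others. Over all tested genes, 448 lay above the mark in 3 tumours, 767 in 2 and 1634 in 1. Below it lay 164 in 5 tumours, 543 in 4, 848 in 3, 779 in 2 and 1180 in 1. Many genes moved beyond the mark in some tumours were thus not called, mostly among those lowered.

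The 57 genes raised beyond the mark in every tumour lay on 29 chromosomes or scaffolds, with 7 of them on chromosome 13, and 5 had a single exon. The 35 genes lowered in every tumour lay on 26 chromosomes or scaffolds, with at most 3 on 1 of them (chromosome 5), and 1 had a single exon. Of all 15057 tested genes, 288 lay on chromosome 13 and 765 on chromosome 5. Outside the mitochondrial genome, 265 tested genes had a single exon of 300 bp or less and 650 a longer single exon. These 92 genes were chosen for their separation in these libraries, so their positions are a description.

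The tumours fell along a range. To put every library on the same footing, each was set against 5 controls, for a control the other 5 and for a tumour the mean over the 6 ways to take 5. Tumours 60749, 60631 and 60461 had 4472, 4424 and 4198 genes at least 2-fold beyond these controls, 29.7%, 29.4% and 27.9% of the genes tested. Tumours 60127, 60679 and 60636 had 1660, 1144 and 979. Of the controls, 5 had 74 to 165 such genes, while control 60516 had 827, of which 666 were above the other controls. That control was the one most like tumour 60636, and it also moved with the tumours in the gene classes described further on. The median difference over the 2760 higher genes divided the tumours in the same way, with 1.59 to 1.69 on the log2 scale in 60461, 60631 and 60749, 1.01 in 60127, 0.92 in 60679 and 0.74 in 60636. Over the 1837 lower genes the median difference was -2.15 to -1.99 in 60461, 60631 and 60749, and -1.06 to -0.90 in 60127, 60636 and 60679. Both sets were chosen in these libraries, so these medians describe the tumours and test nothing. The grade II tumour of dog 60679 was among those with the smaller differences, but so were 2 grade III tumours, and 1 tumour of a grade allows no comparison of grades.

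**Figure D2:**
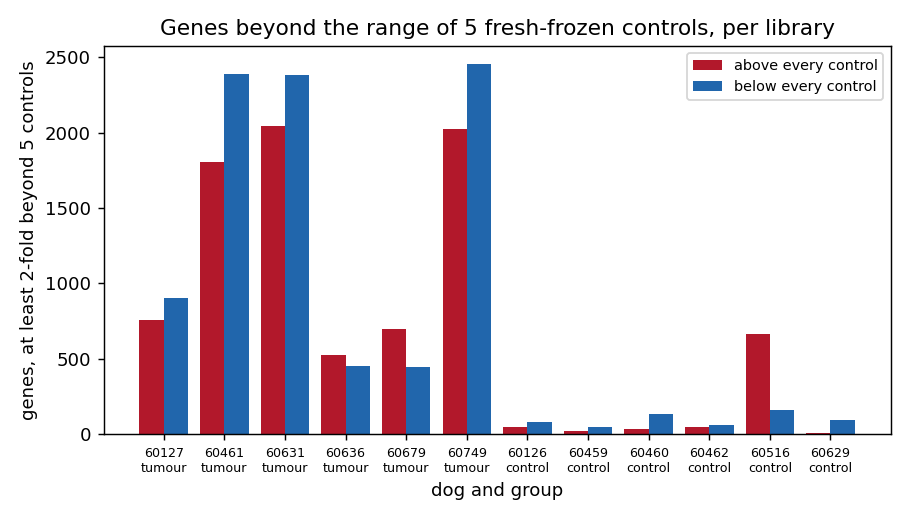
Bars give, for each library, the genes at least 2-fold above (red) or below (blue) every one of 5 controls; tumours are on the left and controls on the right. Tumours 60461, 60631 and 60749 have 4198 to 4472 such genes in all, the other tumours 979 to 1660, and control 60516 has 827.

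Tumours differed from each other more than controls did. For each library the median, over genes, of the absolute difference in log2 CPM from the mean of the rest of its group was taken. It had a lowest value of 0.47 and a highest of 0.58 in tumours, against 0.30 and 0.43 in controls, and the groups did not overlap. Tumours averaged 0.53 ± 0.04 and controls 0.37 ± 0.06 (SD, n = 6 each), a difference of 0.16 (two-sided exact permutation p = 0.00216, the smallest that 6 against 6 libraries can give). With every library thinned to the depth of the shallowest, the difference was 0.15 with the same p. Without the 4 libraries that stood apart it was 0.18 (exact permutation p = 0.0571, 4 against 4). In each of these tests the deviations were taken once, within the true groups, and were not recomputed for each split. The values of a group share libraries, so these p-values are approximate and may overstate the evidence for a difference. Gene by gene, the SD of log2 CPM was larger in tumours for 11653 of 15057 genes (77.4%), with a median of 0.64 in tumours and 0.45 in controls. The biological coefficient of variation, edgeR's measure of spread between replicates, was 0.60 in tumours and 0.39 in controls.

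**Figure D3:**
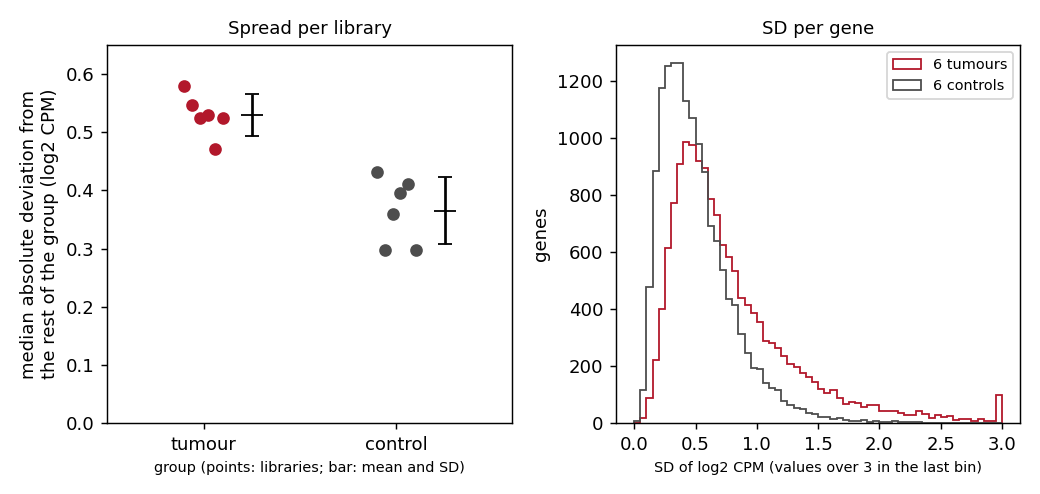
Left, each point is 1 library, and the y axis gives its median absolute deviation in log2 CPM from the rest of its group, with the mean and SD of 6 libraries beside it; tumours (0.47 to 0.58) lie above controls (0.30 to 0.43). Right, histograms of the SD of log2 CPM per gene over 6 tumours (red) and 6 controls (grey), in which the tumour curve lies further right and has a longer tail.

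Single genes show what this range looks like. The values below are log2 CPM, and 4 genes are given, 2 of each direction. They were taken from 1063 higher and 833 lower genes with more than 1 exon, an average level of at least 4 log2 CPM and no overlap with another annotated gene. For each direction the gene with the widest spread over tumours came from all of these, and that with the largest fold from the 397 higher and 290 lower genes whose groups did not overlap. Coordinates are those of CanFam3.1. ENSCAFG00000040206 lies on chromosome 13 (20475339 to 20574929, plus strand, 15 exonic blocks). Its level was 1.82 at the lowest, 4.00 at the median and 7.26 at the highest in tumours, against -2.64, -1.49 and 0.80 in controls. It was chosen with its groups apart; tumour 60749 was the highest, and 3 controls held 1 to 3 counts each. Tumours averaged 4.13 ± 1.93 and controls -1.24 ± 1.42 (SD, n = 6 each), and edgeR gave 6.09 ± 1.11 (SE) for the log2 fold change, with an adjusted p of 0.00294. Without tumour 60749 the log2 fold change was 4.75, in the 10 libraries with a stated age 4.55, and without the 4 libraries that stood apart 7.89, each past the threshold (edgeR adjusted p = 0.00546, 0.0131 and 0.0303). With age as a covariate in those 10 libraries it was 4.71, close to the threshold (edgeR adjusted p = 0.0474).

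ENSCAFG00000000502 lies on chromosome 11 (828789 to 841232, plus strand, 4 exonic blocks). Its tumour levels were 2.20 at the lowest, 3.58 at the median and 9.77 at the highest, and its control levels were 0.79, 2.17 and 3.83. Tumour 60461, with 20990 counts, and tumour 60631 lay above every control, and the other 4 tumours lay within the control range. The log2 fold change, 4.54 ± 1.36 (SE) with an edgeR adjusted p of 0.0240, rested on tumour 60461, without which it was 1.29 (edgeR adjusted p = 0.209). The call was also lost without the 4 libraries that stood apart, at 1.89 (edgeR adjusted p = 0.159), and without control 60459, 60460 or 60629, at 4.34 to 4.38 (edgeR adjusted p = 0.0530 to 0.0536). It was lost in the 10 libraries with a stated age, at 4.62 without and 4.26 with age as a covariate (edgeR adjusted p = 0.0557 and 0.170), and with no filter on low counts (edgeR adjusted p = 0.0758). DESeq2 gave no adjusted p for this gene.

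ENSCAFG00000011168 lies on chromosome 5 (9673809 to 9679799, minus strand, 5 exonic blocks). Its level was 0.61 at the lowest, 4.13 at the median and 6.10 at the highest in tumours, against 7.24, 8.65 and 9.61 in controls. It was chosen with its groups apart, and tumours 60749 and 60631 were lowest and 60679 and 60636 nearest to the controls. For tumour over control edgeR gave -3.93 ± 0.85 (SE) on the log2 scale, with an adjusted p of 0.00613. Without the 4 libraries that stood apart the value was -3.94 and the call was lost (edgeR adjusted p = 0.0641). In the 10 libraries with a stated age it was -3.64 both without and with age as a covariate (edgeR adjusted p = 0.0199 and 0.0456).

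ENSCAFG00000005690 lies on chromosome 24 (12678837 to 12694284, minus strand, 6 exonic blocks). Its level was -2.11 at the lowest, 3.92 at the median and 6.50 at the highest in tumours, against 7.76, 8.51 and 9.43 in controls. Tumours 60631 and 60749 held 2 and 4 counts, where the controls held 3744 to 12853. The other 4 tumours kept levels of 2.59 to 6.50, also below every control. The SD was 3.70 in tumours and 0.64 in controls (n = 6 each), and the log2 fold change was -3.69 ± 1.08 (SE), with an edgeR adjusted p of 0.0221. The call was lost in the 10 libraries with a stated age, at -3.30 without and -3.42 with age as a covariate (edgeR adjusted p = 0.0508 and 0.0821). It was also lost with no filter on low counts (-3.67, edgeR adjusted p = 0.0728) and without the 4 libraries that stood apart (-4.32, edgeR adjusted p = 0.0810). In French Bulldogs alone none of the 4 genes passed (edgeR adjusted p = 0.297 to 0.949). There the log2 fold change of ENSCAFG00000000502 was 0.12, while those of ENSCAFG00000040206, ENSCAFG00000011168 and ENSCAFG00000005690 were 6.49, -3.65 and -3.94.

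**Figure D4:**
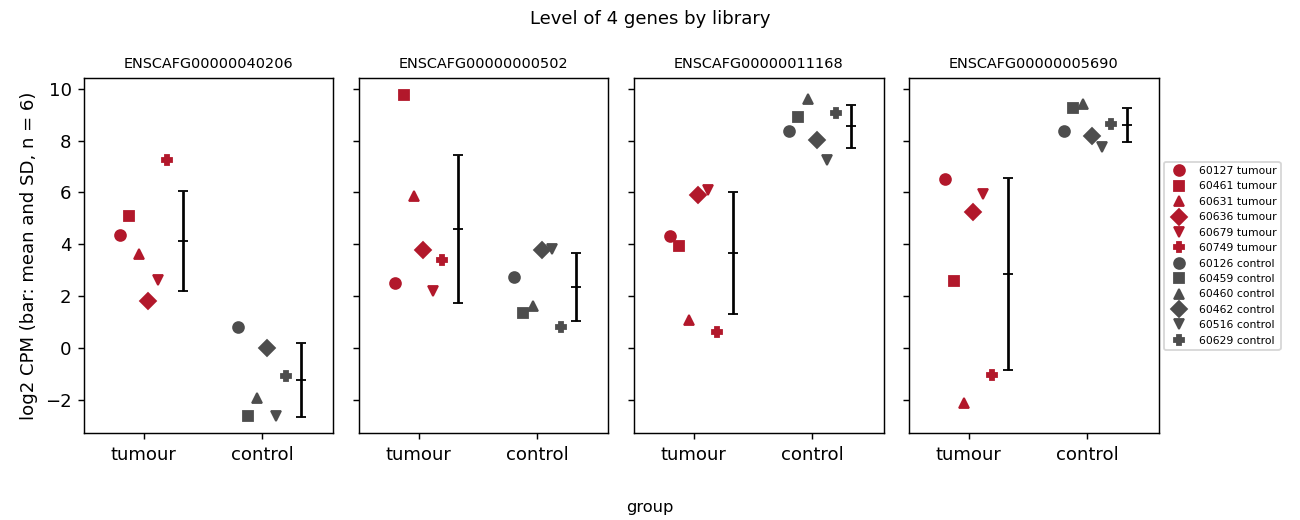
Each panel gives the log2 CPM of 1 gene in the 6 tumours (red, left) and the 6 controls (grey, right), with the mean and SD beside the points and a symbol for each dog. In ENSCAFG00000000502 only tumours 60461 and 60631 lie above the controls, and in ENSCAFG00000005690 tumours 60631 and 60749 lie far below the other tumours.

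Genes that lie together on a chromosome were then followed in each tumour. The shift of a chromosome was computed per library in these steps: each tested gene's log2 CPM less its control mean, then the median over the chromosome less the median over all genes. In controls all shifts lay between -0.23 and 0.29 on the log2 scale, for 39 chromosomes and 6 dogs. The control mean of each gene was taken once, from the true controls, and was not recomputed for each split. The permutation p-values of shifts are therefore approximate and may overstate the evidence for a difference. Chromosome 35 was shifted to 0.25 at the lowest, 0.56 at the median and 1.18 at the highest in tumours, against -0.09, -0.01 and 0.06 in controls, and 67 of its 169 tested genes were called higher and 10 lower, where over all genes 18.3% were called higher and 12.2% lower. All 6 tumours lay above all 6 controls (difference 0.63, adjusted exact permutation p = 0.0422, over 39 chromosomes). Chromosome 31 was lower in all 6 tumours, at -0.27 to -0.10, than in any control, at -0.08 to 0.08 (difference -0.18, adjusted exact permutation p = 0.0422). Of its 139 tested genes 22 were called lower and 16 higher, against 12.2% and 18.3% over all genes. The shift was thus small and seen little in the calls of single genes. Both chromosomes had the smallest unadjusted p that 6 against 6 libraries can give (exact permutation p = 0.00216). A single chromosome at that p would not pass over 39 chromosomes, so each of these calls depended on the other. Both calls were lost when tumour 60631 or tumour 60749 was left out (adjusted exact permutation p = 0.0563), at 0.57 and 0.49 for chromosome 35 and -0.15 and -0.17 for chromosome 31. They were lost as well when any 1 control was left out (adjusted exact permutation p = 0.0844 to 0.127), at 0.63 to 0.65 for chromosome 35 and -0.19 to -0.13 for chromosome 31. With multi-exon genes alone the shift of chromosome 35 was 0.38 and neither call held (adjusted exact permutation p = 0.0844 for both).

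Other chromosomes were shifted to different degrees in different tumours. Chromosome 13 stood at 1.09 in tumour 60461, 1.06 in 60749 and 0.58 in 60631, at 0.18 in 60127, and at 0.08 and 0.01 in 60679 and 60636, against -0.10 to 0.06 in controls. Of its 288 tested genes 103 were called higher and 30 lower, against 18.3% and 12.2% over all genes. The groups overlapped in 1 tumour, and the difference of 0.51 did not pass (adjusted exact permutation p = 0.0844). Chromosome 37 stood at -1.04 in tumour 60631, between -0.33 and -0.16 in 60461, 60636, 60679 and 60749, and at -0.02 in 60127, against -0.04 to 0.11 in controls (difference -0.35, adjusted exact permutation p = 0.0563). Chromosome 14 stood at -0.80 in tumour 60749 and between -0.18 and 0.15 in the other 5 tumours, against -0.12 to 0.13 in controls (difference -0.17, adjusted exact permutation p = 0.506). Chromosome 7 stood at 0.66 in 60631 and 0.52 in 60749, with the other tumours between 0.03 and 0.16 and the controls between -0.03 and 0.04. Its difference of 0.24 did not pass (adjusted exact permutation p = 0.0844). Chromosomes 3 and 21, with differences of -0.15 and 0.19, had the same adjusted p and did not pass either. Chromosome 20 stood at 0.68 in 60749, 0.61 in 60631 and 0.54 in 60679, and at -0.18 in 60127, against -0.23 to 0.15 in controls (difference 0.36, adjusted exact permutation p = 0.160). The lowest controls for chromosome 20 were 60126 and 60462, at -0.23 and -0.22, both among the libraries that stood apart, as is tumour 60127. Tumour 60461, also among them, stood at 0.28. Chromosome 22 stood at -0.56 in 60749, -0.55 in 60461, -0.26 in 60631, -0.25 in 60679 and -0.21 in 60636, all below every control, and at 0.11 in 60127, against -0.13 to 0.21 in controls (difference -0.29, adjusted exact permutation p = 0.160).

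**Figure D5:**
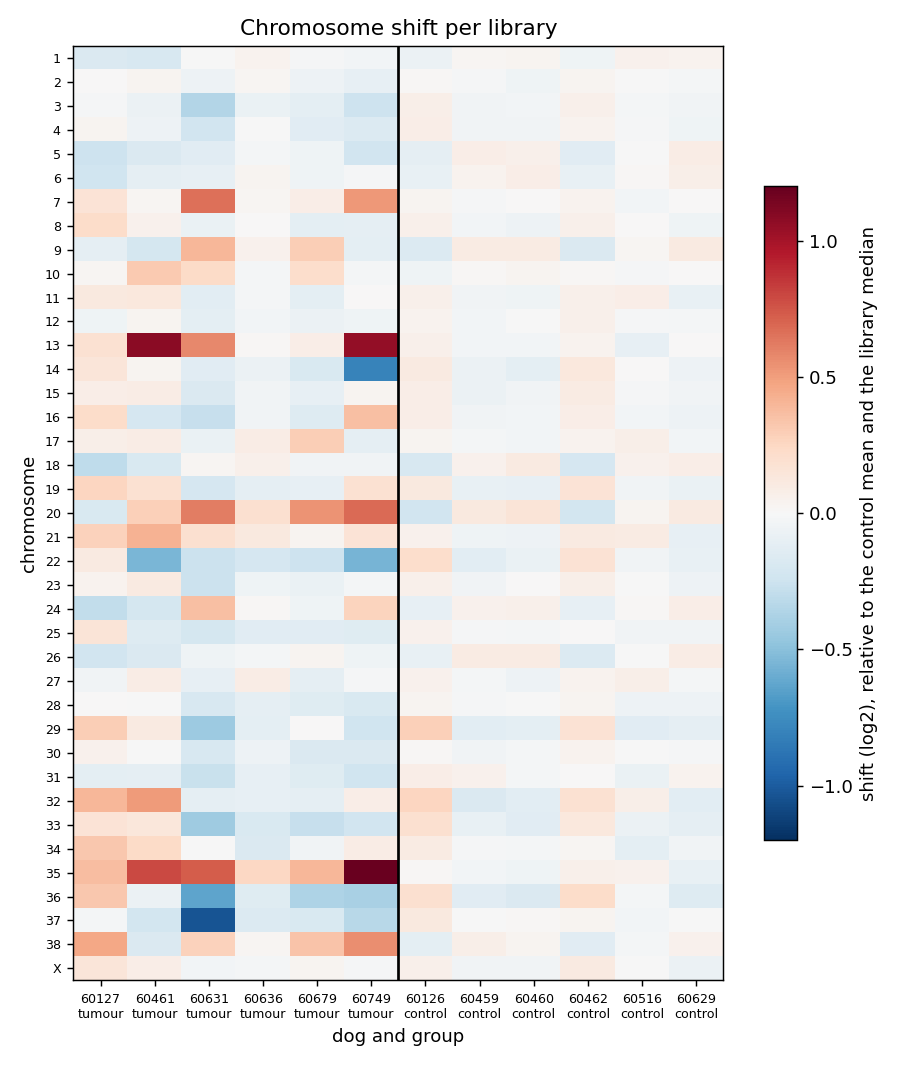
Each cell is the shift of 1 chromosome (rows) in 1 library (columns, tumours left and controls right), on a log2 colour scale from -1.2 to 1.2. Controls stay between -0.23 and 0.29, chromosome 35 is raised in every tumour, and chromosomes 7, 13, 14, 22 and 37 are moved far more in some tumours than in others.

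With a margin of 0.25 beyond the range of the 6 controls, a mark set after the shifts had been seen, 31 shifts of single tumours on 18 chromosomes were counted, 22 above and 9 below. Chromosome 31 was not among these 18 chromosomes. Tumour 60631 had 11, tumour 60749 had 9, tumour 60461 had 6, tumour 60679 had 3, tumour 60127 had 2 and tumour 60636 had 0. No control passed the same margin against the other 5. The control mean subtracted from each control included that control, which draws the control shifts and their SD towards 0. The margin was therefore easier to stay within for a control than for a tumour. The count fell to 19 without tumour 60631. The SD of the 39 shifts within a library was 0.10 in tumour 60636 and 0.19 to 0.38 in the other tumours, against 0.05 to 0.11 in controls.

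Some of the largest shifts ran along most of their chromosome, and others along a stretch of it. In tumour 60631, 83.1% of the 177 tested genes of chromosome 37 lay on the low side, and the 3 segments of 10 Mb stood at -1.18 to -0.84. In tumour 60749, 71.8% of the 262 tested genes of chromosome 14 lay on the low side. The 5 segments of chromosome 14 from 0 to 50 Mb stood at -1.13 to -0.60 there, while that from 50 to 60 Mb stood at 0.04, within the control range of -0.27 to 0.31. On chromosome 13 all 6 segments with at least 10 tested genes lay above every control in tumours 60461 (0.37 to 1.46) and 60749 (0.28 to 1.31). In tumour 60631 the segments of chromosome 13 from 20 to 40 Mb stood at 0.73 and 0.80, and the others at 0.22 to 0.33. On chromosome 38 in tumour 60127 the segments from 0 to 20 Mb stood at 0.77 and 1.26, and that from 20 to 30 Mb at -0.07. Chromosome 35 differed along its length, with the segment from 20 to 30 Mb at 0.49 to 1.54 in the 5 tumours past the margin, and that from 10 to 20 Mb at -0.06 to 0.63.

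The FFPE tissue of the same dogs gave a second library for 5 of the tumours, all but 60631, and so for 20 of the 31 shifts. Each was set against 10 FFPE controls, of which 3 came from dogs that also gave a fresh-frozen control. In 12 of the 20 the FFPE library lay beyond all 10 FFPE controls on the same side. FFPE tumours of other dogs often did so too, 1 to 8 of the other 10 for each of the 20 shifts. The count of 12 alone therefore does not show agreement particular to a dog. For tumour 60749 the FFPE library lay beyond the FFPE controls on the same side for 8 of 9 shifts. Chromosome 14 stood at -0.75 in that FFPE library, against -0.26 to 0.25 in FFPE controls, and 2 of the other 10 FFPE tumours also lay below those controls. Chromosome 13 stood at 1.03 in it, against -0.15 to 0.39 in FFPE controls, with 6 of the other 10 FFPE tumours above. For tumour 60461 it held for 3 of 6 shifts, with chromosome 13 at 0.46 in FFPE tissue where the frozen library had 1.09, and chromosome 22 at -0.05, within the FFPE controls. For tumour 60679 it held for 1 of 3, chromosome 35 at 0.49 against -0.33 to 0.31 in FFPE controls, and for tumour 60127 for 0 of 2. On chromosome 35, 7 of the other 10 FFPE tumours also lay above the FFPE controls, so this shift was not particular to tumour 60679. No label used here says whether frozen and fixed tissue came from the same piece of tumour.

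The change also varied with the structure of the genes. Among 189 tested genes that span 500 kb or more of the genome, 29 were higher (15.3%) and 47 lower (24.9%), and the median log2 fold change was -0.40. Among 886 genes of 200 to 500 kb, 15.2% were higher and 23.5% lower (median -0.25), and among 4598 genes under 10 kb, 21.1% were higher and 8.66% lower (median 0.22). Over all 15057 genes 18.3% were higher and 12.2% lower, and the median was 0.10. Set against the control mean, the genes of 500 kb or more had a median of -0.88 to -0.18 in the 6 tumours and of -0.25 to 0.10 in the 6 controls. The groups overlapped through control 60516, at -0.25, which lay below tumours 60679 (-0.18) and 60127 (-0.20). The genes at 7 log2 CPM or more behaved alike, with -0.71 to -0.22 in tumours, -0.32 in control 60516 and 0.00 to 0.10 in the other controls. Of the 37 tested mitochondrial genes 0 were called higher and 10 lower, with medians of -3.00 to -0.88 in 5 tumours and 0.63 in tumour 60127, against -0.66 to 0.80 in controls. These class values are descriptions with no test.

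Some measures of the libraries moved with tissue. Nuclear features with a single exon of 300 bp or less took 0.631% of counts at the lowest, 1.03% at the median and 1.58% at the highest in tumours, against 0.336%, 0.560% and 0.722% in controls (adjusted exact permutation p = 0.0379, over 5 measures). Tumour 60679 alone lay within the control range. Unplaced scaffolds took 0.199% to 0.641% in tumours and 0.146% to 0.215% in controls (difference 0.142 percentage points, adjusted exact permutation p = 0.0379). Both calls were lost when any 1 control was left out (adjusted exact permutation p = 0.0649 to 0.119 for the short features and 0.152 to 0.254 for scaffolds). Tumours 60749 and 60631 had the highest shares of scaffold counts, and without 60749 the difference was 0.0797 points. Mitochondrial genes took 4.06% to 8.92% of counts in 5 tumours and 23.3% in tumour 60127, against 9.94% to 19.8% in controls. The difference in mitochondrial share did not pass (-4.73 points, adjusted exact permutation p = 0.244), and it did without tumour 60127 (-7.51 points, adjusted exact permutation p = 0.0108). The 50 highest genes took 13.8% to 30.3% in tumours and 18.6% to 28.2% in controls (adjusted exact permutation p = 0.244), and again the difference passed without tumour 60127 (-6.28 points, adjusted exact permutation p = 0.0108). At an equal depth of 9765907 counts, 18583 to 19836 genes had a count in tumours and 18413 to 23190 in controls (adjusted exact permutation p = 0.844). The part of these shares in the gene calls was not tested beyond leaving mitochondrial genes out, with which edgeR called 2571 genes higher and 1812 lower.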

How the data were processed

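The table deposited by the authors holds raw fragment counts for each gene, from featureCounts 1.6.0 (forward strand, mapping quality of at least 10, Ensembl release 100 models of CanFam3.1), per the file headers. The submitters' processing notes also list fastp and STAR. Libraries were forward-stranded total RNA carrying molecular identifiers of 12 nt, per the labels' protocols. No source used here says if these were used to collapse reads.

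The main test was edgeR 4.0.16 in R 4.3.3, by quasi-likelihood with robust dispersion, on TMM-scaled counts of genes kept by filterByExpr, at a Benjamini-Hochberg adjusted p under 0.05. Standard errors are the log2 fold change over the root of F. Log2 CPM used a prior count of 2. Values per library were tested with all 924 splits (exact permutation, two-sided). Exonic blocks are exons merged over transcripts. The test was checked on simulated counts. DESeq2 1.42.0, limma 3.58.1 and other settings were alternatives.

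The groups compared, the members, lists and rules were chosen with earlier results of these data known. The fixed gene lists could not be used, because no identifier had a name. Of each direction the genes named are the largest fold with groups apart and the largest SD over tumours. The margin of 0.25, the FFPE comparison and the 4 libraries that stood apart were chosen after seeing the data. Nothing states that each sample was extracted apart, so p-values measure the spread between these dogs' samples.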

Additional observations from a re-analysis of the deposited data

Results flagged for a closer look

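In 98 groups of 6 values (39 chromosome shifts, 5 library measures, 4 genes and the spread, in tumours and in controls), 6 held a library far from the rest of its group, and chance flags about 1 group in 20. Chromosome 14 stood at -0.80 in tumour 60749, with the other tumours between -0.18 and 0.15. Chromosome 37 stood at -1.04 in tumour 60631, with the others between -0.33 and -0.02. Chromosome 25 stood at 0.15 in tumour 60127, with the others between -0.21 and -0.13. Mitochondrial genes took 23.3% of counts in tumour 60127, with 4.06% to 8.92% in the other tumours. In the same library the 50 highest genes took 30.3%, with 13.8% to 17.8% in the other tumours. At equal depth 23190 genes had a count in control 60462, with 18413 to 19609 in the other controls.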

How the results depend on the processing

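The count of 4597 genes ranged from 3129 (without control 60629) to 5014 (without tumour 60636) when 1 library was left out, and from 3466 to 6205 with other scaling, tools, filters, thinning, all 33 libraries in the fit or mitochondrial genes left out. It was 581 with age as a covariate, 2108 in the same libraries without it, 0 in French Bulldogs, and 2291 without and 0 in the 4 libraries that stood apart, where fewer dogs entered. Leaving out the grade II tumour is leaving out dog 60679. With DESeq2, which kept more genes of low count, the median log2 fold change over genes was -0.14, against 0.10 with edgeR. The count of 2 shifted chromosomes was 0 without a filter on low counts, with multi-exon genes, without the 4 libraries or without tumour 60636 and control 60516. It was 5 with at least 50 counts in 6 libraries, and 0 to 8 with 1 library left out. The 8 was reached without tumour 60127. Without the 4 libraries, or without tumour 60636 and control 60516, fewer splits exist and the smallest possible p is larger. Many of the 39 chromosomes would have to reach that p together to pass, so the 0 of these runs says little about the shifts. The 31 shifts of single tumours became 6 without a filter, and 19 (without tumour 60631) to 35 (without control 60516) with 1 library left out; none of them changed sign under any alternative run. The cause of these changes was not tested. With mitochondrial genes left out of the total, the differences in the shares of short single-exon features (0.522 points) and scaffolds (0.144 points) no longer passed, nor did they without the 4 libraries (0.551 and 0.188 points). With 1 library left out, where any 1 control ended both calls, they ran from 0.398 to 0.588 and from 0.0797 to 0.168 points, the mitochondrial difference from -7.51 to -3.60 points and that of the 50 highest genes from -6.28 to -2.83 points. The difference in genes detected was 357.25 without the 4 libraries and -658.8 to 290.6 with 1 library left out, so its direction turned (290.6 without control 60462). The spread difference was 0.1825 without the 4 libraries, where the call was lost, and 0.13 to 0.19 with 1 library left out. No paired analysis was possible because the tumours and the controls came from different dogs. Tumour 60749, with 9765907 counts, had the lowest depth and so the least precise values for weakly expressed genes.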

Other observations

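Some genes departed from all other libraries in 1 tumour only. Genes at least 4-fold above each of the other 11 libraries numbered 26 in tumour 60461, 23 in 60749, 20 in 60631, 5 each in 60127 and 60679 and 3 in 60636, against 0 to 8 in controls. Genes at least 4-fold below each of the other libraries numbered 108 in tumour 60749, 62 in 60631, 18 in 60461 and 0 to 3 in the other tumours, against 0 to 3 in controls. At 16-fold above, 2 genes were left in tumour 60461 and 1 in tumour 60127, and 0 in the other libraries. Library depth differs between these dogs, and its part in these counts was not tested.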
